A study of Homo sapiens with 12 samples.

Results

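Aminoacyl-tRNA synthetases are the enzymes that load amino acids onto tRNAs, and 38 of the 15090 genes listed in the data set encode one by their symbol. They were chosen by symbol alone: a single amino acid letter followed by ARS and, where present, an ending of 1, 2, 3, A or B, together with EPRS1. Of these, 20 form the cytosolic class (among them AARS1, CARS1, EPRS1, FARSA, FARSB, GARS1, HARS1, IARS1, KARS1, LARS1, MARS1, NARS1, QARS1, RARS1, SARS1, TARS1, VARS, WARS1 and YARS1). Another 17 form the mitochondrial class, with symbols ending in 2 (among them AARS2, CARS2, EARS2, FARS2, HARS2, IARS2, LARS2, MARS2, NARS2, PARS2, RARS2, SARS2, TARS2, VARS2, WARS2 and YARS2). TARS3, a further threonyl enzyme of the cytosol, was kept apart because its ending places it in neither class. The symbol VARS is an older name of VARS1, and the other 37 symbols are current. All 38 genes passed the filter on low values.

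The cells were MIA PaCa-2, an established human pancreatic cancer line with the genotype given as WT, and total RNA was sequenced from 12 libraries in 4 groups of 3. Cells were kept in RPMI 1640 lacking glutamine, into which L-glutamine was put back at 2 or 40 mM. Each glutamine level was combined with no drug or with gemcitabine at 0.5 µM, an analogue of deoxycytidine that blocks DNA synthesis, and all groups carry the time 48 h. The series design calls the 3 libraries of a group biological triplicates of this 1 line, and nothing more is said of how they were cultured, so p-values measure only the spread between these libraries.

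Each synthetase recognises 1 amino acid and its tRNAs, so the family supplies the ribosome with every building block. Cytosol and mitochondria use largely separate sets, both encoded in the nucleus, while the GARS1 and KARS1 genes supply both compartments. Several cytosolic enzymes sit in the multisynthetase complex, here taken as 8 genes, among them EPRS1, LARS1, IARS1, MARS1, QARS1, KARS1 and RARS1. Glutamine reaches tRNA by different routes: QARS1 loads it directly in the cytosol, whereas in mitochondria EARS2 first loads glutamate, which an amidotransferase then converts to glutamine on the tRNA. WARS1 is known for being inducible by interferon, and many cytosolic synthetase genes are known targets of ATF4, a transcription factor of the amino acid response.

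Promoter sequence was matched for 30 of the 38 genes, as 250 bases before to 50 after the start site in RefSeq (build GRCh38.p14). Among the missing ones are AARS2, LARS1, TARS3, VARS, VARS2 and YARS1. The amino acid response element bound by ATF4 with a C/EBP partner, searched as TGATGNAA on both strands, was present in 6 of 16 cytosolic promoters (AARS1, CARS1, IARS1, MARS1, NARS1 and TARS1) and in 1 of 14 mitochondrial ones (YARS2), against 3.62% of 34943 promoters of the same length. The sites of AARS1 and TARS1 are printed because both genes rose with the drug at both glutamine levels. Of the other carriers, NARS1 fell with the drug at both levels, and CARS1, IARS1, MARS1 and YARS2 passed in neither drug comparison. The capitals mark the element, which reads TGATGNAA on the opposite strand, and the lower case letters are 18 bases on each side. The AARS1 stretch lies at chr16:70289668-70289711 (minus strand) upstream of the start, and the TARS1 stretch at chr5:33440949-33440992 (plus strand) spans the start, with the element just past it.
AARS1: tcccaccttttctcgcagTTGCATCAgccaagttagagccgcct
TARS1: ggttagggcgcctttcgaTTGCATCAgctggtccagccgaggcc

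HARS1 and HARS2, the cytosolic and mitochondrial histidyl enzymes, are transcribed away from each other from a shared stretch of 84 bases between their starts, at chr5:140691371-140691454 of the same build. It is shown, in the plus strand, because only HARS1 of this pair passed the test in any comparison; a test of the difference between the pair was not run. Its GC content is 59.5%.
HARS1/HARS2: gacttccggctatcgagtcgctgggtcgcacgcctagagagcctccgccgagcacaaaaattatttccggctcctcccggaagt

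Other motifs were in few promoters by count, and their shares were not tested. The E-box CACGTG was in 1 of 16 cytosolic promoters (IARS1) and 3 of 14 mitochondrial ones (CARS2, EARS2 and MARS2). These shares were 6.25% and 21.4%, against 7.23% of all promoters. The NRF1 core GCGCATGC was in 0 of 16 cytosolic and 2 of 14 mitochondrial promoters (MARS2 and YARS2, 14.3%), against 3.02%. A pattern like the interferon response element (GAAA, any 2 bases, GAAA) was in 0 of 16 cytosolic promoters, that of WARS1 included, and in that of EARS2, against 3.57%. These matches describe letters in a fixed window and are no evidence of binding.

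Between 21723094 and 32811746 reads per library fell on listed genes. The deposited values are log2 of reads per 1000000 (RPM) plus 1, and levels are given here as RPM. Of the epithelial and mesenchymal markers, KRT8 lay at 1350 to 2360 RPM, KRT18 at 795 to 1600 RPM and VIM at 2940 to 3490 RPM. PTPRC, CD3E, PECAM1, LUM, INS, PRSS1 and CPA1 were not listed, CD14 was at most 0.65 RPM, and of the collagen genes COL1A1 reached 1.61 RPM while COL1A2 lay at 582 to 897 RPM. Reads of the 13 protein-coding mitochondrial genes took 3.823 to 4.617% of each library. The 3 libraries at 40 mM with drug stood apart in scaling: divided by 1000000, their RPM values added up to between 0.97167 and 0.97441, against 0.99805 to 1.021 in the other 9. In what follows a library without gemcitabine is called untreated and one with it treated. In bulk RNA, fewer cells with an mRNA and less of it per cell cannot be told apart.

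Cytosolic synthetase mRNAs were generally the more abundant class. Per kilobase of transcript, so that genes of different length can be compared, the median level over the 12 libraries was 84.4 RPM per kb for the 20 cytosolic genes and 14.7 RPM per kb for the 17 mitochondrial genes. By this measure GARS1, the glycyl enzyme of both compartments, was highest at 252 RPM per kb, with a median transcript length of 1479 bases. Not divided by length, it was at 373.2 RPM, below AARS1 at 634.5 RPM and WARS1 at 612.1 RPM. Transcripts were not filtered for completeness before lengths were taken, so the order of genes per kb is uncertain. IARS2, the mitochondrial isoleucyl enzyme, led its class at 103 RPM per kb. WARS2, the mitochondrial tryptophanyl enzyme, was lowest in its class at 4.22 RPM per kb, and VARS lowest in the cytosolic class at 0.414 RPM per kb. VARS, the valyl enzyme of the cytosol, was listed at 1.15 to 1.99 RPM at 2 mM without drug, at 1.57 to 2.33 RPM with drug, at 1.26 to 2.97 RPM at 40 mM without drug and at 1.62 to 1.70 RPM with drug. CARS1 was the other cytosolic gene listed at a low level, 4.24 RPM per kb. The sources used here do not say how reads matching several loci were counted, and the part of that counting in the low listed values of VARS and CARS1 was not tested.

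Pairing each cytosolic enzyme with the mitochondrial enzyme of the same amino acid gave 18 pairs, with EPRS1 paired to both EARS2 and PARS2. The cytosolic member had the higher level per kilobase in 15 of them, and the median ratio was 4.55. The widest gap was for tryptophan, where WARS1 was 57.8 times the level of WARS2. Alanine followed with a ratio of 17.2 for AARS1 over AARS2. The ratio of MARS1 over MARS2, for methionine, was 14.6, and that of EPRS1 over PARS2 was 13.2. The lengths used were 1399.5 bases for MARS1 and 3019 for MARS2, so the rank of methionine is uncertain. The order was inverted for isoleucine (IARS1 over IARS2 0.863), cysteine (CARS1 over CARS2 0.107) and valine (VARS over VARS2 0.0976), and the last 2 rest on the low listed values of CARS1 and VARS, whose counting is open to the same doubt. These ratios are descriptions of mean levels, with no test.

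**Figure D1:**
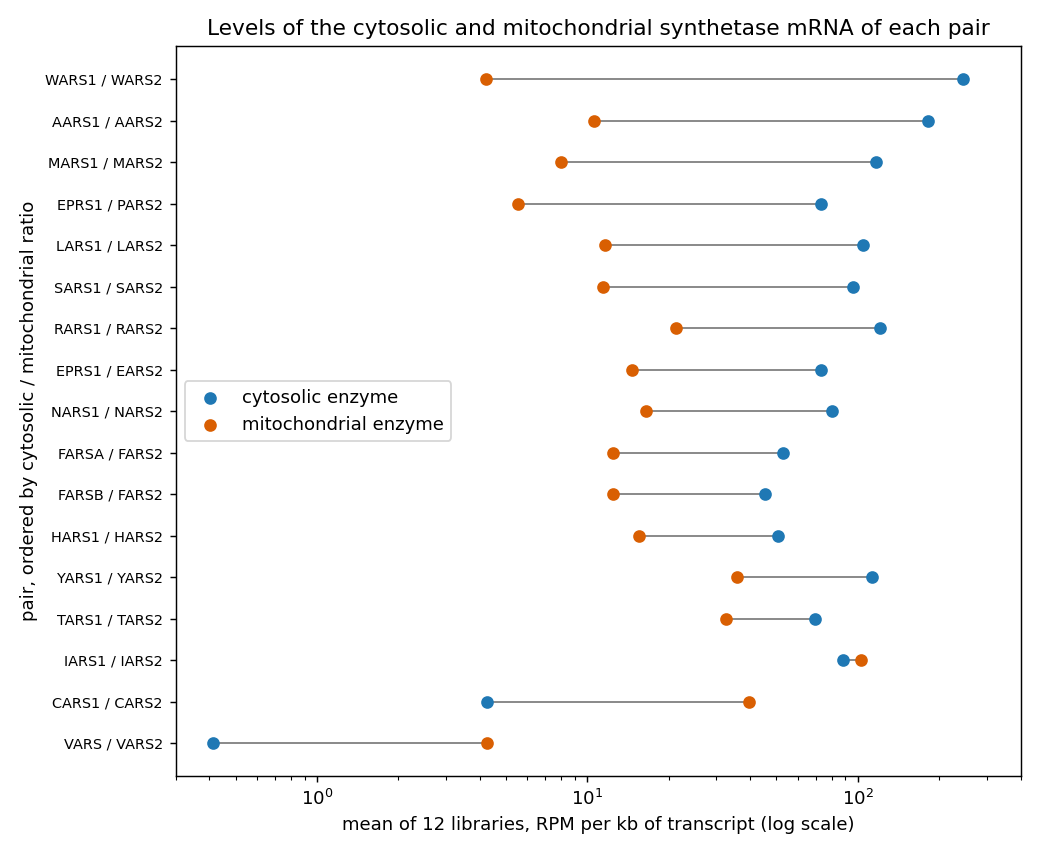
Mean level over 12 libraries in RPM per kb of transcript (horizontal, log scale) of the cytosolic (blue) and mitochondrial (orange) enzyme mRNA of 17 of the 18 pairs, ordered by their ratio. The cytosolic member is higher in 14 of the pairs drawn, by most for WARS1 over WARS2, and lower for isoleucine, cysteine and valine.

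The summed level of each class was taken per group. The 20 cytosolic genes added up to 4874 ± 69.1 RPM (SD, n = 3) at 2 mM without drug, 4919 ± 22.2 with drug, 4871 ± 123 at 40 mM without drug and 4973 ± 23.8 with drug. The 17 mitochondrial genes added up to 1104 ± 19.9, 1081 ± 4.1, 1104 ± 10.5 and 1047 ± 7.86 RPM in the same order. At each glutamine level all 3 treated libraries lay below the untreated ones, narrowly at 2 mM (highest treated 1083.2 RPM, lowest untreated 1089.5 RPM). As a share of reads, which leaves out the deposited scaling, the cytosolic genes took 0.4797 ± 0.00469%, 0.4869 ± 0.00202%, 0.4863 ± 0.0108% and 0.5111 ± 0.00172%, with the libraries at 40 mM with drug above all 9 others. The mitochondrial genes took 0.1087 ± 0.00149%, 0.107 ± 0.000577%, 0.1102 ± 0.000651% and 0.1076 ± 0.000961%. Individual genes moved in both directions within these sums. In all, 28 of the 38 genes passed the test in at least 1 of the 4 pairwise comparisons (17 cytosolic, 10 mitochondrial and TARS3), where 55.7% of all genes tested did. None changed as much as 2-fold, and the largest change that passed was a fall of WARS2 by 0.43 on the log2 scale. Each glutamine comparison shares libraries with each drug comparison, so their calls are not independent of each other. The test was limma on the deposited log2 values, with p-values adjusted by Benjamini-Hochberg over the 12789 tested genes and called at 0.05. Changes are on the log2(RPM + 1) scale, which understates those of the lowest genes. Among the 10 genes that passed in no comparison were MARS1 and VARS in the cytosolic class and VARS2, RARS2, LARS2, HARS2, CARS2 and AARS2 in the mitochondrial class.

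**Figure D2:**
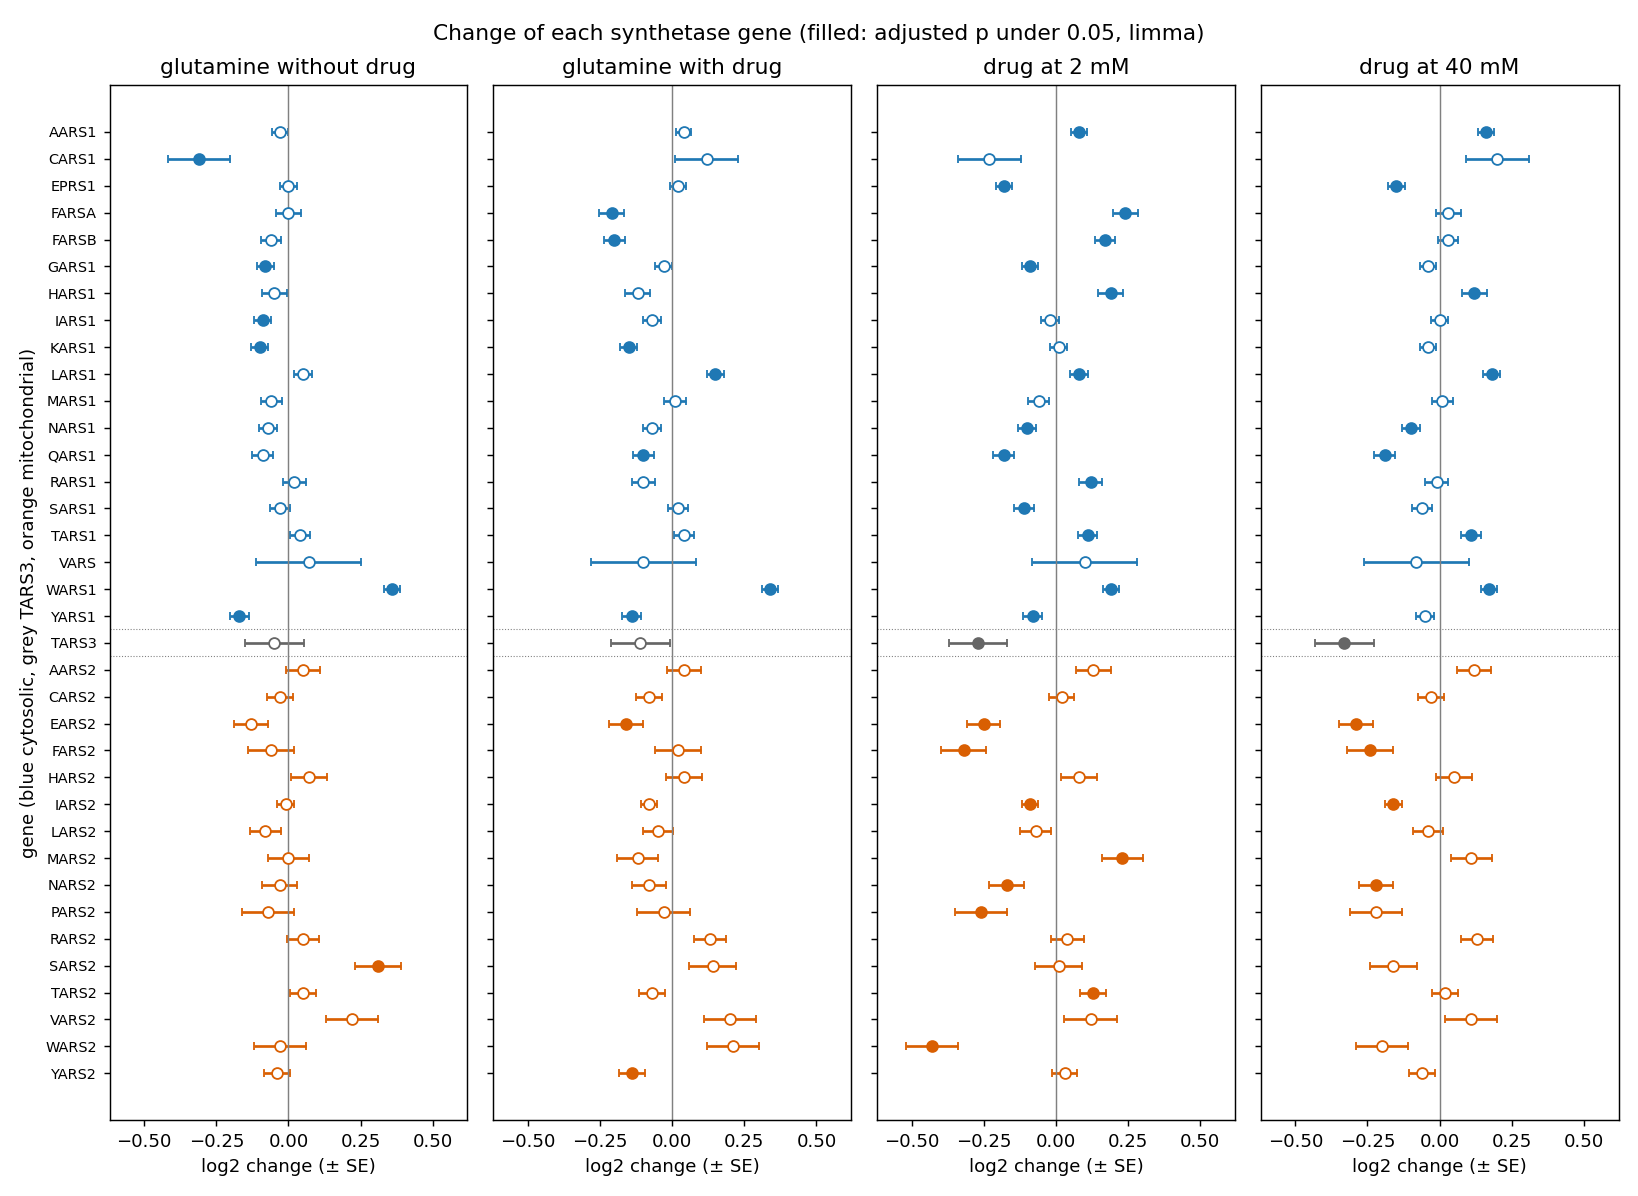
Log2 change ± SE (horizontal) of 36 of the 38 synthetase genes in the 4 pairwise comparisons, with cytosolic genes in blue, TARS3 in grey and mitochondrial genes in orange; filled points have a limma adjusted p under 0.05. WARS1 is filled on the right in every panel, and EARS2 on the left in 3.

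WARS1, the tryptophanyl enzyme of the cytosol, rose in all 4 comparisons, and no other synthetase gene passed in all 4. Its level was 500, 505 and 500 RPM in the libraries at 2 mM without drug and 570, 566 and 584 RPM with drug. At 40 mM it was 626, 674 and 638 RPM without drug and 724, 726 and 732 RPM with drug. The 4 groups formed a ladder with no overlap between any of them. Glutamine at 40 mM raised WARS1 by 0.36 without drug (SE 0.0280, limma adjusted p = 2.7e-11) and by 0.34 with drug (limma adjusted p = 8.17e-11). Gemcitabine raised it by 0.19 at 2 mM (limma adjusted p = 1.56e-06) and by 0.17 at 40 mM (limma adjusted p = 1.18e-05). The drug response did not differ detectably between glutamine levels, with an interaction of -0.02 (95% interval -0.10 to 0.06, limma adjusted p = 0.854). WARS1 took 10.29 ± 0.0961% of the reads of the 20 cytosolic genes in the first group, 11.66 ± 0.173% with drug, 13.26 ± 0.172% with 40 mM glutamine and 14.62 ± 0.143% with both (SD, n = 3).

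By size of the log2 change alone, WARS1 was not extreme among the genes called higher. Its SE of 0.028 was below the median of 0.069 over all genes tested, and ranks by p-value were not taken. A larger rise was seen for 13.9% of the genes called higher with glutamine without drug and 24.4% of those with drug present. For the drug itself these shares were 68.8% at 2 mM and 80.2% at 40 mM. A list of genes of interferon gamma type was chosen with WARS1 in mind, and 3 of its genes were tested. In each of the 4 comparisons 2 of the 3 rose, where 8.41% to 17.5% of all genes rose. IRF1 rose in all 4 comparisons while GBP2 passed in none. IRF1, a transcription factor of interferon signalling, went from 21.0 ± 1.96 RPM at 2 mM without drug to 27.5 ± 2.3 RPM with drug, and from 26.8 ± 1.43 to 32.3 ± 0.837 RPM at 40 mM (SD, n = 3).

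**Figure D3:**
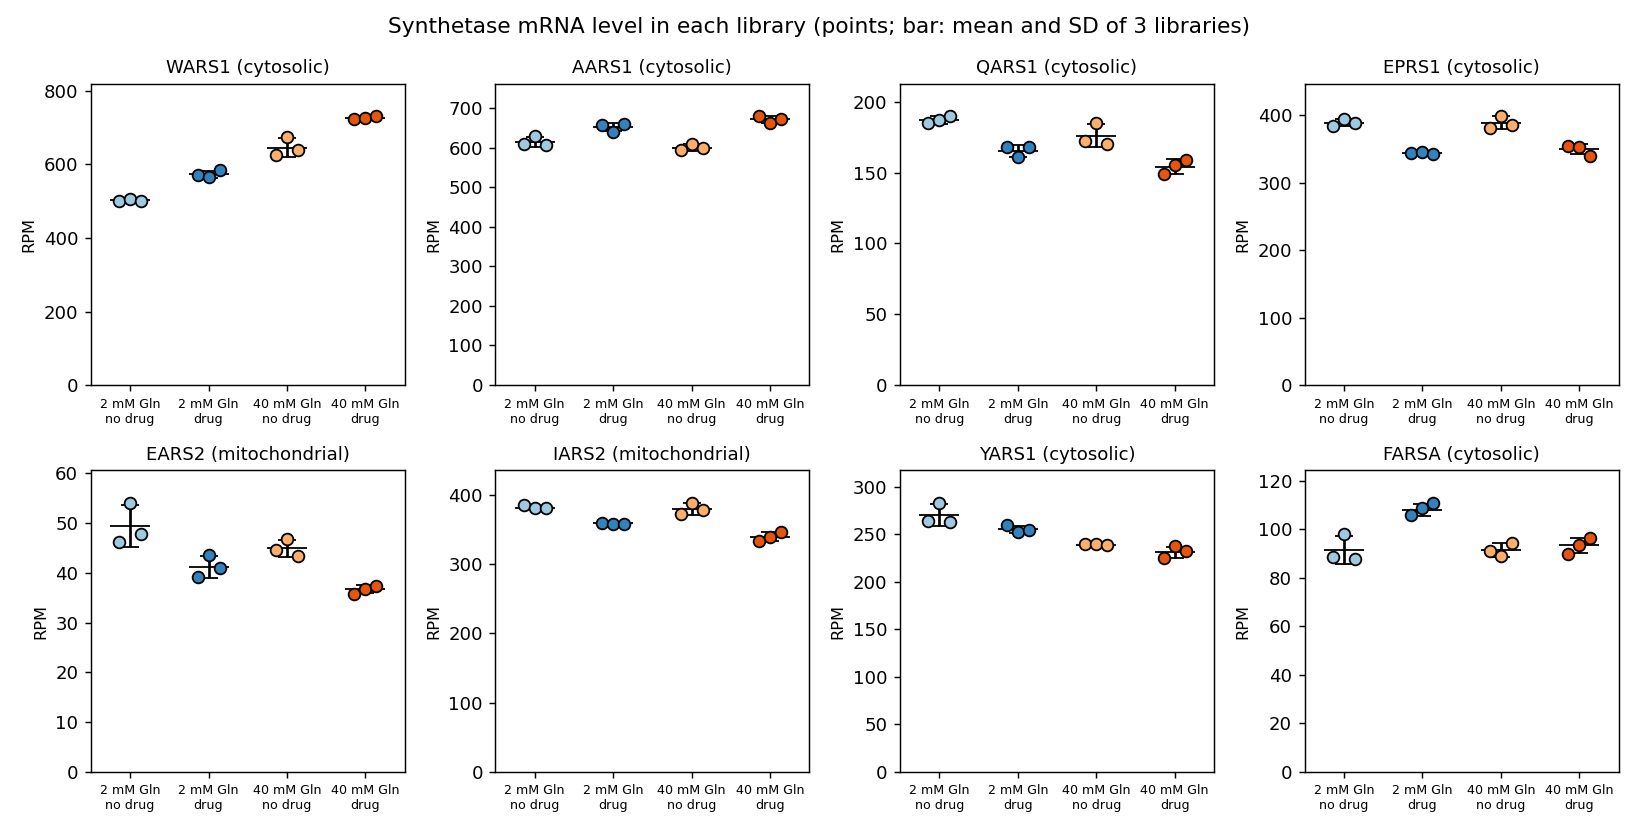
RPM in each library (vertical axis from 0, points) of 8 synthetase genes in the 4 groups, with the mean and SD of 3 libraries as bars. WARS1 climbs from 500 to 732 RPM over the 4 groups without overlap, while QARS1, EPRS1, EARS2 and IARS2 are lower in the drug groups at each glutamine level.

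With all libraries, synthetase genes passed the test for high glutamine without drug about as often as genes at large. The precision was unequal, with a median SE of 0.034 for cytosolic and 0.06 for mitochondrial genes against 0.069 over all genes tested. Of the 38, 2 rose and 5 fell (7 in all, and 2 to 4 without untreated 2 mM replicate 2 or 3 or untreated 40 mM replicate 1 or 3), where 17.5% of all genes tested passed (8.41% higher and 9.12% lower). WARS1 rose and 5 other genes fell in the cytosolic class, and in the mitochondrial class 1 of 17 rose. The median change was -0.043 for the cytosolic class and -0.009 for the mitochondrial class, against 0.002 over all genes tested. Without GARS1 and KARS1 the cytosolic median was -0.033.

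YARS1, the tyrosyl enzyme of the cytosol, fell with glutamine both without and with drug. Its libraries were at 264, 283 and 263 RPM at 2 mM and 240, 240 and 238 RPM at 40 mM without drug, and at 259, 252 and 254 RPM against 225, 237 and 232 RPM with drug. The glutamine groups did not overlap in either setting. The log2 change was -0.17 without drug (SE 0.0322, limma adjusted p = 1.79e-04) and -0.14 with drug (limma adjusted p = 0.00151). The second YARS1 call ended in limma with quantile normalization (log2 change -0.08, adjusted p = 0.0645). The drug at 2 mM gave -0.08 (limma adjusted p = 0.0491). The YARS1 drug call ended in limma with own library totals or no filter and on leaving out untreated 2 mM replicate 2, treated 2 mM replicates 1, 2 or 3, untreated 40 mM replicate 3 or treated 40 mM replicates 2 or 3 (log2 change -0.09 to -0.05, adjusted p = 0.0501 to 0.31).

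KARS1, the lysyl enzyme of both compartments, fell with glutamine as well. Its level was 365, 381 and 371 RPM at 2 mM without drug against 348, 354 and 340 RPM at 40 mM, a change of -0.10 (limma adjusted p = 0.0143). With drug it was 367, 382 and 374 RPM against 337, 341 and 333 RPM, a change of -0.15 (limma adjusted p = 2.44e-04). All 3 high-glutamine libraries lay below the 3 low-glutamine libraries in each case, and the drug comparisons of KARS1 did not pass. The KARS1 call without drug ended in limma on leaving out untreated 2 mM replicate 2 or untreated 40 mM replicate 3 (log2 change -0.08, adjusted p = 0.0817 to 0.0819).

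GARS1 was at 391, 394 and 393 RPM at 2 mM and 362, 384 and 367 RPM at 40 mM without drug, and at 367, 371 and 366 RPM against 366, 362 and 356 RPM with drug. The libraries at 2 mM without drug lay above the other 9. GARS1 fell with glutamine without drug (-0.08, limma adjusted p = 0.0443) and with the drug at 2 mM (-0.09, limma adjusted p = 0.0104). The glutamine call of GARS1 ended in limma with own library totals, quantile normalization, no filter or only the 2 groups compared and on leaving out untreated 2 mM replicates 1, 2 or 3, treated 2 mM replicates 1, 2 or 3, untreated 40 mM replicates 1 or 3 or treated 40 mM replicate 2 (log2 change -0.09 to -0.06, adjusted p = 0.0522 to 0.162).

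CARS1, the cysteinyl enzyme of the cytosol, was listed at 13.0, 11.9 and 12.7 RPM at 2 mM without drug and 9.85, 10.3 and 9.68 RPM at 40 mM. With drug the values were 11.3, 12.2 and 8.51 RPM at 2 mM and 13.5, 10.4 and 10.9 RPM at 40 mM, where the groups overlapped. The change without drug was -0.31 (SE 0.109, limma adjusted p = 0.0486). The CARS1 call ended in limma with own library totals, quantile normalization, no filter or voom on recovered reads and on leaving out untreated 2 mM replicates 1, 2 or 3, treated 2 mM replicate 1, untreated 40 mM replicates 1, 2 or 3 or treated 40 mM replicate 3 (log2 change -0.34 to -0.28, adjusted p = 0.0506 to 0.132). IARS1, the isoleucyl enzyme of the cytosol, completed the falls with -0.09 (limma adjusted p = 0.0333). The IARS1 call ended in limma with own library totals or only the 2 groups compared and on leaving out untreated 2 mM replicates 2 or 3 or untreated 40 mM replicates 1 or 3 (log2 change -0.09 to -0.07, adjusted p = 0.0668 to 0.162).

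SARS2, the mitochondrial seryl enzyme, was the other synthetase gene that rose with glutamine without drug. It was at 17.1, 15.6 and 18.5 RPM at 2 mM and 21.2, 20.7 and 22.3 RPM at 40 mM without drug, with no overlap, and at 17.5, 16.7 and 17.2 RPM against 17.3, 18.8 and 21.0 RPM with drug, with overlap. The rise without drug was 0.31 (SE 0.0812, limma adjusted p = 0.0063). The SARS2 call ended in limma without untreated 2 mM replicate 2 (log2 change 0.25, adjusted p = 0.0501).

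With the drug present, glutamine at 40 mM raised 2 synthetase genes and lowered 7, where 21.6% of all genes passed (8.62% higher and 13.0% lower). In the cytosolic class 2 rose and 5 fell of 20, and in the mitochondrial class 2 fell of 17. The class medians were -0.046 and -0.03, against -0.002 over all genes tested. The balance of directions depended on scaling: with each library scaled to its own total, 8 synthetase genes rose and 4 fell, and with quantile normalization 5 rose and 3 fell. The cytosolic median then was 0.009 and 0.014, and the mitochondrial median 0.020 and -0.018. Over all genes the share of calls that were higher was 39.9% as deposited, 68.2% with own totals and 50.1% with quantile normalization. For glutamine without drug that share went from 48.0% to 61.2% with own totals, where 2 synthetase genes rose and 2 fell and the mitochondrial median was 0.012.

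The 2 subunits of the cytosolic phenylalanyl enzyme, FARSA and FARSB, were both lower with glutamine when drug was present. FARSA was at 106, 109 and 111 RPM at 2 mM with drug, against 90.0, 93.7 and 96.5 RPM at 40 mM with drug, 88.7, 98.2 and 87.6 RPM at 2 mM without drug and 91.2, 88.9 and 94.3 RPM at 40 mM without drug. FARSB was at 171, 171 and 167 RPM at 2 mM with drug and 149, 152 and 143 RPM at 40 mM with drug. Without drug it was at 148, 153 and 152 RPM at 2 mM and 140, 147 and 146 RPM at 40 mM. For both genes the 3 libraries at 2 mM with drug lay above all 9 others. Glutamine with drug gave -0.21 for FARSA (SE 0.0431, limma adjusted p = 4.27e-04) and -0.20 for FARSB (SE 0.0348, limma adjusted p = 7.87e-05). The drug at 2 mM gave 0.24 (limma adjusted p = 3.32e-05) and 0.17 (limma adjusted p = 2.29e-04), whereas at 40 mM it gave 0.03 for each gene, which did not pass. Glutamine with drug and drug at 2 mM share the libraries at 2 mM with drug.

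LARS1, the leucyl enzyme and a known leucine sensor for mTORC1, was at 293, 288 and 293 RPM at 2 mM without drug and 309, 302 and 314 RPM with drug. At 40 mM it was at 292, 315 and 300 RPM without drug and 348, 340 and 338 RPM with drug. The libraries with both treatments stood above all 9 others. LARS1 rose with glutamine in the presence of drug by 0.15 (limma adjusted p = 5.78e-04), with drug at 40 mM by 0.18 (limma adjusted p = 2.27e-05) and with drug at 2 mM by 0.08 (limma adjusted p = 0.0308). The LARS1 call at 2 mM ended in limma on leaving out untreated 2 mM replicates 1, 2 or 3 or treated 2 mM replicates 1 or 3 (log2 change 0.07 to 0.09, adjusted p = 0.0508 to 0.13).

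YARS2, the mitochondrial tyrosyl enzyme, was at 78.4, 76.7 and 82.4 RPM at 2 mM with drug and 69.6, 72.8 and 73.5 RPM at 40 mM with drug, without overlap, and at 75.9, 81.5 and 75.0 RPM against 73.0, 78.6 and 74.3 RPM without drug, with overlap. It fell with glutamine in the presence of drug (-0.14, limma adjusted p = 0.0269). The YARS2 call ended in limma with own library totals or quantile normalization and on leaving out treated 2 mM replicates 1 or 3 or treated 40 mM replicate 1 (log2 change -0.14 to -0.08, adjusted p = 0.0526 to 0.182).

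Gemcitabine moved synthetase genes in both directions. At 2 mM glutamine 10 rose and 13 fell (23 in all, and 14 without treated 2 mM replicate 1), where 34.6% of all genes passed (17.5% higher and 17.1% lower). Of the cytosolic class 8 rose and 6 fell, of the mitochondrial class 2 rose and 6 fell, and TARS3 fell. At 40 mM 5 rose and 8 fell, where 30.3% of all genes passed (14.1% higher and 16.2% lower), with 5 higher and 3 lower in the cytosolic class, 0 higher and 4 lower in the mitochondrial class, and TARS3 lower. The medians of the classes stayed close to that of all genes: -0.005 (cytosolic) and 0.022 (mitochondrial) at 2 mM against -0.001, and -0.003 and -0.035 at 40 mM against -0.005. At 40 mM the share of all calls that were higher went from 46.6% to 62.9% with own library totals, where 7 synthetase genes rose and 6 fell and the class medians were 0.038 (cytosolic) and 0.005 (mitochondrial).

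The drug comparisons at 2 and 40 mM share no library. In both of them 5 synthetase genes rose (AARS1, HARS1, LARS1, TARS1 and WARS1, all cytosolic) and 8 fell (EPRS1, NARS1 and QARS1 in the cytosolic class, EARS2, FARS2, IARS2 and NARS2 in the mitochondrial class, and TARS3). Of all genes tested, 9.47% rose in both and 10.2% fell in both. No gene passed in opposite directions. A further 10 passed at 2 mM only and 0 at 40 mM only. Those 10 are not shown to differ between glutamine levels, since no synthetase gene passed the interaction test.

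**Figure D4:**
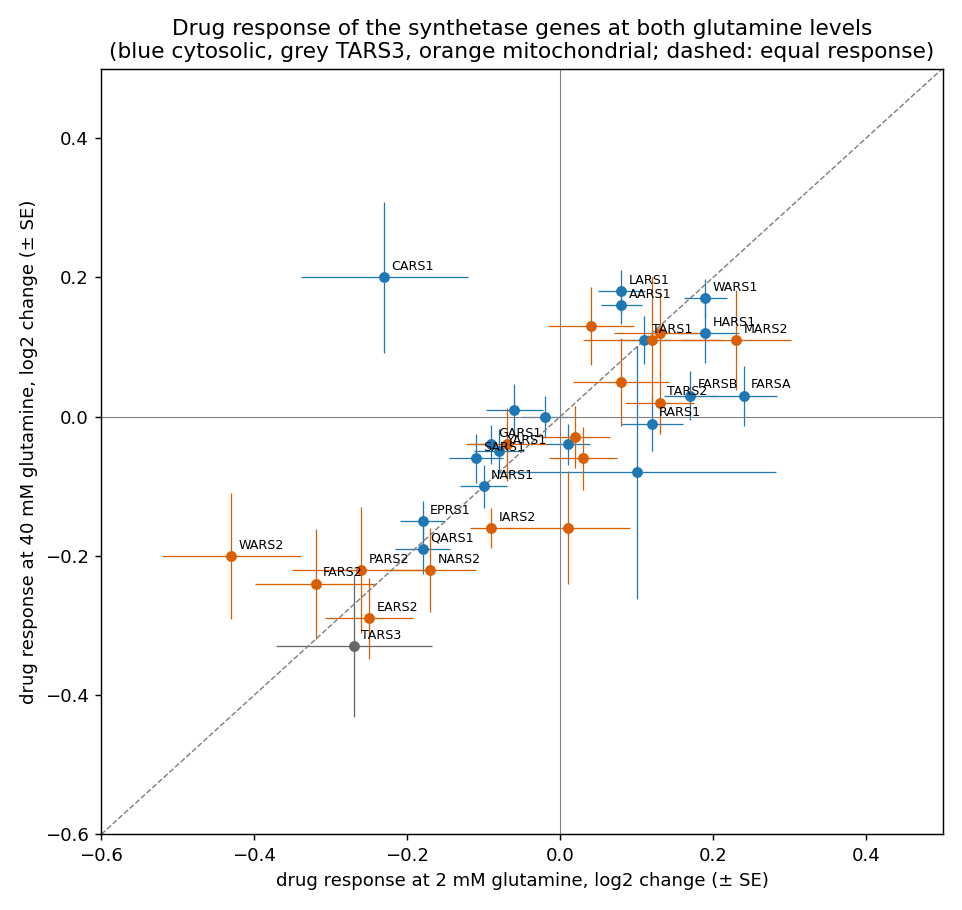
Log2 change ± SE with gemcitabine at 2 mM glutamine (horizontal) against 40 mM (vertical) for 36 of the 38 synthetase genes, blue cytosolic, grey TARS3, orange mitochondrial; genes that passed in either comparison and CARS1 are named, and the dashed line marks an equal response. The 5 genes higher in both comparisons are blue, and FARSA lies to the right of the line, with 0.24 at 2 mM and 0.03 at 40 mM.

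QARS1, EPRS1 and EARS2, the 3 enzymes that load glutamine or glutamate, fell with the drug at both glutamine levels. QARS1, which loads glutamine in the cytosol, was at 185, 187 and 190 RPM without drug and 168, 161 and 168 RPM with drug at 2 mM, and at 172, 185 and 170 RPM without drug and 149, 155 and 159 RPM with drug at 40 mM. The drug groups lay wholly below the untreated ones at each glutamine level. The drug gave -0.18 at 2 mM (SE 0.0362, limma adjusted p = 2.13e-04) and -0.19 at 40 mM (limma adjusted p = 1.44e-04). Glutamine itself gave -0.10 with drug (limma adjusted p = 0.0413) and -0.09 without (limma adjusted p = 0.0673). The glutamine call of QARS1 ended in limma with own library totals or quantile normalization and on leaving out treated 2 mM replicates 1 or 3 or treated 40 mM replicates 1 or 2 (log2 change -0.10 to -0.05, adjusted p = 0.0811 to 0.361).

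EPRS1, the joint glutamyl and prolyl enzyme of the cytosol, was at 384, 395 and 388 RPM without drug and 344, 346 and 343 RPM with drug at 2 mM. At 40 mM it was at 381, 399 and 385 RPM without drug and 355, 353 and 340 RPM with drug. Every treated library lay below every untreated one. The drug gave -0.18 (SE 0.0289, limma adjusted p = 1.1e-05) and -0.15 (limma adjusted p = 1.03e-04), while the glutamine changes were -0.00 (95% interval -0.06 to 0.06) and 0.02 (-0.04 to 0.08).

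EARS2, the mitochondrial glutamyl enzyme on the route to glutaminyl-tRNA, was at 46.2, 54.1 and 47.8 RPM without drug and 39.2, 43.5 and 40.9 RPM with drug at 2 mM. At 40 mM it was at 44.6, 46.8 and 43.4 RPM without drug and 35.8, 36.8 and 37.3 RPM with drug. Treated and untreated libraries did not overlap at either level. The drug gave -0.25 (SE 0.0581, limma adjusted p = 8.4e-04) and -0.29 (limma adjusted p = 2.32e-04). Glutamine gave -0.16 with drug (limma adjusted p = 0.0408) and -0.13 without (limma adjusted p = 0.12). The glutamine call of EARS2 ended in limma with own library totals, quantile normalization or voom on recovered reads and on leaving out treated 2 mM replicates 2 or 3 or treated 40 mM replicates 1, 2 or 3 (log2 change -0.18 to -0.11, adjusted p = 0.0505 to 0.206). Interactions of QARS1, EPRS1 and EARS2 were -0.01 (95% interval -0.11 to 0.10), 0.02 (-0.06 to 0.11) and -0.03 (-0.20 to 0.13).

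Of the amidotransferase that completes the mitochondrial route, all 3 subunits were tested. GATB fell with the drug at 40 mM (-0.26, limma adjusted p = 0.00229), from 29.7 ± 1.64 to 24.6 ± 1.06 RPM, as did GATC (-0.16, limma adjusted p = 0.0064), from 85.6 ± 5.04 to 76.3 ± 2.9 RPM (SD, n = 3). At 2 mM GATB changed by -0.14 (limma adjusted p = 0.105) and did not pass. GATC also rose with glutamine without drug by 0.14 (limma adjusted p = 0.0285), and QRSL1 passed in no comparison.

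Among cytosolic genes that rose with the drug, AARS1, the alanyl enzyme, was at 609, 630 and 606 RPM without drug and 656, 640 and 659 RPM with drug at 2 mM, and at 593, 610 and 598 RPM against 680, 662 and 671 RPM at 40 mM. The treated libraries were higher than the untreated at each level. AARS1 rose by 0.08 (limma adjusted p = 0.0143) and by 0.16 (limma adjusted p = 1.7e-05). The AARS1 call at 2 mM ended in limma on leaving out untreated 2 mM replicates 1 or 3 or treated 2 mM replicates 1 or 3 (log2 change 0.07 to 0.08, adjusted p = 0.0511 to 0.0682). TARS1, the threonyl enzyme, rose by 0.11 in each comparison (limma adjusted p = 0.0156 and 0.0145). The TARS1 call at 2 mM ended in limma with quantile normalization and on leaving out untreated 2 mM replicate 3 or treated 2 mM replicate 1 (log2 change 0.07 to 0.09, adjusted p = 0.065 to 0.11). Its call at 40 mM ended in limma on leaving out untreated 40 mM replicate 1 or treated 40 mM replicate 3 (log2 change 0.09 to 0.10, adjusted p = 0.0528 to 0.0778).

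HARS1 was at 89.0, 91.9 and 89.3 RPM without drug and 104, 105 and 99.0 RPM with drug at 2 mM, with no overlap. At 40 mM it was at 86.2, 81.3 and 93.4 RPM without drug and 92.3, 95.8 and 95.8 RPM with drug, where 1 untreated library lay above 1 treated library. The rises were 0.19 (limma adjusted p = 9.73e-04) and 0.12 (limma adjusted p = 0.0301). The HARS1 call at 40 mM ended in limma with only the 2 groups compared and on leaving out untreated 40 mM replicates 1 or 2 or treated 40 mM replicates 2 or 3 (log2 change 0.08 to 0.12, adjusted p = 0.0506 to 0.22). HARS2, on the other side of the shared stretch of 84 bases printed above, changed by 0.08 (95% interval -0.05 to 0.21) and 0.05 (-0.07 to 0.18).

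Of the amino acid response motif carriers, AARS1 and TARS1 rose with drug and NARS1, the asparaginyl enzyme, fell at both levels (-0.10 and -0.10, limma adjusted p = 0.00895 and 0.0153). The NARS1 call at 40 mM ended in limma with own library totals or quantile normalization and on leaving out untreated 40 mM replicate 2 or treated 40 mM replicates 2 or 3 (log2 change -0.09 to -0.06, adjusted p = 0.0567 to 0.167). CARS1, IARS1, MARS1 and YARS2 passed in neither drug comparison. The remaining cytosolic calls at 2 mM were a rise of RARS1, the arginyl enzyme (0.12, limma adjusted p = 0.0182), and a fall of SARS1, the seryl enzyme (-0.11, limma adjusted p = 0.0151). The RARS1 call ended in limma on leaving out untreated 2 mM replicate 1 or treated 2 mM replicates 1 or 3 (log2 change 0.09 to 0.12, adjusted p = 0.0528 to 0.118). The SARS1 call ended in limma on leaving out untreated 2 mM replicate 2 or treated 2 mM replicate 3 (log2 change -0.09, adjusted p = 0.0741 to 0.0753).

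In the mitochondrial class, WARS2 had the largest change of the family that passed a pairwise test. It was at 12.8, 13.7 and 13.5 RPM without drug and 10, 9.43 and 9.44 RPM with drug at 2 mM, and at 13.2, 12.8 and 13.3 RPM against 12, 10.4 and 11.6 RPM at 40 mM. Treated libraries lay below untreated ones at both levels. The change was -0.43 at 2 mM (SE 0.0906, limma adjusted p = 3.07e-04), and at 40 mM it was -0.20 (limma adjusted p = 0.103), which did not pass. The 2 tryptophanyl genes thus had drug changes of opposite sign at 2 mM, 0.19 for WARS1 and -0.43 for WARS2, and each passed its own test; the difference between them was not tested.

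FARS2, the mitochondrial phenylalanyl enzyme, was at 23.3, 25.3 and 21.9 RPM without drug and 20.1, 17.6 and 18.1 RPM with drug at 2 mM, and at 22.1, 24.8 and 20.6 RPM against 18.7, 18.3 and 19.6 RPM at 40 mM. No treated library reached the lowest untreated library of its glutamine level. FARS2 fell at 2 mM (-0.32, SE 0.0791, limma adjusted p = 0.00159) and at 40 mM (-0.24, limma adjusted p = 0.0197). The FARS2 call at 40 mM ended in limma with own library totals and on leaving out untreated 40 mM replicate 2 or treated 40 mM replicates 1 or 2 (log2 change -0.23 to -0.17, adjusted p = 0.0519 to 0.143).

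NARS2, the mitochondrial asparaginyl enzyme, was at 40.0, 41.9 and 42.7 RPM without drug and 37.6, 33.3 and 39.6 RPM with drug at 2 mM, and at 41.8, 41.8 and 38.8 RPM against 35.4, 33.8 and 35.1 RPM at 40 mM. There was no overlap at either level, and the changes were -0.17 (limma adjusted p = 0.0238) and -0.22 (limma adjusted p = 0.00421). The NARS2 call at 2 mM ended in limma on leaving out untreated 2 mM replicates 2 or 3 or treated 2 mM replicate 2 (log2 change -0.17 to -0.10, adjusted p = 0.06 to 0.23).

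IARS2 was at 385, 382 and 381 RPM without drug and 360, 358 and 358 RPM with drug at 2 mM, and at 372, 389 and 379 RPM against 334, 339 and 347 RPM at 40 mM. Again the groups were fully separate. The changes were -0.09 (SE 0.0283, limma adjusted p = 0.0109) and -0.16 (limma adjusted p = 3.96e-05).

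PARS2, the mitochondrial prolyl enzyme, was at 14.8, 14.3 and 14.6 RPM without drug and 11.3, 12.4 and 12.3 RPM with drug at 2 mM, which did not overlap, and at 13.7, 15.0 and 13.0 RPM against 11.2, 13.0 and 11.1 RPM at 40 mM, where the highest treated library lay just under the lowest untreated one. The fall at 2 mM was -0.26 (limma adjusted p = 0.0237), and at 40 mM the change was -0.22 (limma adjusted p = 0.0588). The PARS2 call ended in limma on leaving out untreated 2 mM replicates 1 or 3 or treated 2 mM replicate 1 (log2 change -0.26 to -0.22, adjusted p = 0.0518 to 0.0991). MARS2, the mitochondrial methionyl enzyme, rose at 2 mM by 0.23 (limma adjusted p = 0.0122), and TARS2, the mitochondrial threonyl enzyme, by 0.13 (limma adjusted p = 0.0239). The MARS2 call ended in limma on leaving out untreated 2 mM replicate 1 or treated 2 mM replicate 1 (log2 change 0.17 to 0.20, adjusted p = 0.0595 to 0.0946). The TARS2 call ended in limma on leaving out untreated 2 mM replicates 1 or 3 or treated 2 mM replicates 1 or 3 (log2 change 0.10 to 0.13, adjusted p = 0.0531 to 0.151).

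TARS3 was at 9.09, 10.4 and 9.82 RPM without drug and 7.76, 7.57 and 8.45 RPM with drug at 2 mM, and at 9.72, 8.81 and 9.64 RPM against 7.03, 7.16 and 7.54 RPM at 40 mM, with all treated libraries below all untreated ones. The changes were -0.27 (limma adjusted p = 0.0366) and -0.33 (limma adjusted p = 0.0118). The TARS3 call at 2 mM ended in limma with no filter and on leaving out untreated 2 mM replicates 2 or 3 or treated 2 mM replicates 1 or 2 (log2 change -0.27 to -0.23, adjusted p = 0.0528 to 0.128).

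No synthetase gene passed the interaction test with limma, which asks whether the drug response differs between glutamine levels, where 2.2% of all genes passed (0.727% higher and 1.47% lower). Unadjusted p-values under 0.05 were found for 5 of the 38. The smallest adjusted p was that of FARSA, with -0.21 (SE 0.0610, limma adjusted p = 0.0542), and FARSB had -0.14 (limma adjusted p = 0.145). FARSA passed under voom weights on the recovered reads (adjusted p = 0.0458) and under robust moderation (adjusted p = 0.0417) in limma, and also without untreated 2 mM replicate 2 (0.0118), untreated 40 mM replicate 2 (0.0338) or treated 40 mM replicate 3 (0.0426). CARS1 had the largest interaction estimate, 0.43 (95% interval 0.11 to 0.74, limma adjusted p = 0.151). The precision differed between classes: the median SE of a change was 0.034 for cytosolic genes, with a median of 4854 reads per library, and 0.06 for mitochondrial genes, with 983 reads. Over all genes tested it was 0.069, with 715 reads. Shares of synthetase genes and of all genes that passed were therefore not taken at equal precision.

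Within the cytosolic class, the complex and the free enzymes were counted apart. Of the 8 complex enzymes, 2 rose and 2 fell with drug at 2 mM, and 1 rose and 2 fell at 40 mM. Of the 12 free enzymes, 6 rose and 4 fell at 2 mM, and 4 rose and 1 fell at 40 mM. Of all genes, 34.6% passed at 2 mM and 30.3% at 40 mM, and the difference between complex and free enzymes was not tested. The medians were -0.025 and 0.09 at 2 mM and -0.024 and 0.031 at 40 mM. Of the 3 scaffold proteins of the complex, AIMP2 rose with the drug, by 0.23 at 2 mM (limma adjusted p = 0.00348) and 0.18 at 40 mM (limma adjusted p = 0.0227), while AIMP1 and EEF1E1 passed in no comparison.

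Elongation factors receive the charged tRNA at the ribosome. Of 5 cytosolic elongation factor genes, 4 fell and 0 rose in each drug comparison, where 17.1% of all genes fell at 2 mM and 16.2% at 40 mM, and EEF1D passed in neither (-0.10 and -0.19). EEF2, the translocase, went from 5660 ± 60.2 to 4560 ± 93.9 RPM at 2 mM and from 5240 ± 111 to 4070 ± 47.4 RPM at 40 mM (SD, n = 3), changes of -0.31 and -0.36. EEF1A1, which carries charged tRNA to the ribosome, fell (-0.22 and -0.19), as did EEF1G (-0.17 and -0.22). In mitochondria TUFM, the counterpart of EEF1A1, fell in all 4 comparisons, with -0.13 and -0.23 for glutamine without and with drug and -0.08 and -0.19 for drug at 2 and 40 mM. GFM1, a mitochondrial translocase, rose with drug by 0.27 and 0.15.

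Genes of tRNA maturation and export gave 6 rises and 3 falls of 21 with drug at 2 mM, and 0 rises and 1 fall at 40 mM, where 34.6% and 30.3% of all genes passed. With glutamine, 1 rose and 2 fell without drug, and 0 rose and 5 fell with drug, where 17.5% and 21.6% of all genes passed. XPOT, the tRNA exporter, fell with glutamine (-0.17 without drug and -0.11 with drug), as did SSB, which binds new tRNA transcripts (-0.19 and -0.13). RPP25 and POP7, subunits of the ribonuclease that trims tRNA, rose with drug at 2 mM by 0.31 and 0.36.

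Genes of the GCN2 and ATF4 amino acid response, 21 in all, did not move as 1 block. With glutamine 1 rose and 1 fell without drug, and 1 rose and 4 fell with drug, where 17.5% and 21.6% of all genes passed. The drug raised 4 and lowered 6 at 2 mM, and raised 7 and lowered 5 at 40 mM, where 34.6% and 30.3% of all genes passed. ATF4 itself passed in no comparison. The kinase gene of GCN2, EIF2AK4, fell with drug (-0.12 and -0.16). Changes in this list ran from -0.68 to 0.41 with drug at 2 mM and from -0.18 to 0.74 at 40 mM. ASNS, asparagine synthetase, fell with drug at 2 mM (-0.68, limma adjusted p = 4.66e-04), from 3.66 ± 0.111 to 1.92 ± 0.208 RPM. At 40 mM ASNS changed by -0.18 (limma adjusted p = 0.395) and did not pass. PHGDH, of serine synthesis, rose by 0.25 and 0.14 and SESN2, a stress protein, by 0.22 and 0.21. SLC7A5, a carrier of large neutral amino acids, fell in all 4 comparisons, with -0.25 and -0.23 for glutamine without and with drug and -0.14 and -0.12 for drug at 2 and 40 mM.

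In 2 further lists, PSTK, the kinase of the selenocysteine tRNA route, rose with glutamine in the presence of drug by 0.57 (limma adjusted p = 0.00386). It was the only 1 of 4 genes of that route to pass in a pairwise comparison, where 55.7% of all genes passed in at least 1. Of 3 trans-editing and deacylase genes, DTD1 fell with drug at both levels (-0.13 and -0.17) and PTRH2 rose at 2 mM (0.33). Of all genes, 34.6% passed with drug at 2 mM and 30.3% at 40 mM.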

How the data were processed

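RNA-seq libraries of 12 MIA PaCa-2 samples were analysed from 1 table. The authors deposited log2 values, which the values themselves show to be log2 of RPM plus a pseudocount of 1, since 100% of RPM values were whole multiples of 1 read within 0.05 read; per the file headers the columns carry the library names of the titles. Not given in the sources used here are the aligner, counter, genome build, strand setting and scaling method. Genes with at least 1 RPM in at least 3 of 12 libraries were tested (12789, leaving 2301 untested). Limma 3.58.1 (R 4.3.3) fitted 4 group means with a mean-variance trend, and Benjamini-Hochberg adjusted p-values were called at 0.05. The members, lists and tests were chosen with earlier results of these data known. Named genes were the called synthetases with the largest change per class and comparison (up to 4), QARS1, EARS2, WARS1, GARS1, KARS1 and EPRS1 in any case, the extremes of level per class, and up to 6 called genes of each other list. Lengths are medians over GENCODE 29 coding transcripts, which were not filtered for completeness. A setting named as ending a call is 1 of up to 22 alternatives per gene: own library totals, quantile normalization, pseudocounts 0.5 and 5, no filter, a filter at 10 RPM, voom weights, robust moderation, only the 2 groups compared, a replicate block, and leaving out each library. No pair of replicates matched within sampling noise (chi-square per degree of freedom 2.42 to 5.88). Values of a few genes are counted in the totals but not reported singly here. The procedure was tested on simulated data.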

Additional observations from a re-analysis of the deposited data

How the results depend on the processing

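The replicate numbers gave no clear pairing of the libraries. Correlations of same-numbered deviations ran from -0.077 to 0.048, although 7 of 12 libraries correlated best with their own number. Whether the libraries are paired was not tested. With a replicate block, 1 synthetase gene passed the interaction test in place of 0, as it did with a filter at 10 RPM, with voom weights and with robust moderation; the gene was FARSA each time (adjusted p = 0.0492 with the replicate block in limma). Leaving out 1 library gave 0 to 1 synthetase genes for the interaction, 2 to 8 for glutamine without drug (7 with all libraries) and 14 to 23 for the drug at 2 mM (23 with all). Over all genes, the interaction count of 281 ranged from 155 to 366 when 1 library was left out; it was 165 or below without untreated 2 mM replicate 1, treated 2 mM replicate 1 or 2, or untreated 40 mM replicate 3, and 174 and 180 without treated 40 mM replicate 1 and treated 2 mM replicate 3. With own library totals, 4 synthetase genes passed for glutamine without drug. Of the 52 calls on single synthetase genes, 28 held in every setting tried: 2 of 7 for glutamine without drug, 5 of 9 with drug, 12 of 23 for the drug at 2 mM and 9 of 13 at 40 mM. All 4 of WARS1 are among them. None of the 52 calls on single synthetase genes changed sign in any setting tried, whereas class medians near 0 did, as did the balance of rises and falls for glutamine with drug: with own library totals the medians for glutamine with drug were 0.009 (cytosolic) and 0.020 (mitochondrial), against -0.046 and -0.03. The cause of each lost call was not tested. With a median SE of 0.06 for mitochondrial genes, smaller changes there could be missed.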
